A study of Mus musculus with 10 samples.

Results

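Interleukin receptor chains are the cell surface proteins through which a cell senses interleukins, and 37 of the 16936 protein-coding genes of the deposited table carry such a name. They were chosen by symbol alone, as every gene whose symbol begins with Il, a number and r, leaving out Il1rn, which encodes a secreted antagonist and no receptor. Expression was measured by RNA sequencing in mouse bone marrow-derived macrophages, primary cells that had matured from marrow over 7 days in medium with 50 ng/mL of GM-CSF. PLG, which the design text gives as plasminogen of human origin, was added to 5 samples for 24 h, and 5 samples were left untreated. GM-CSF gives cultures with both macrophage and dendritic cell features, and both groups received it. No strain, sex or age of the mice was given in the sources used here, and nothing ties a replicate to a mouse or a culture, so p-values reflect only how far these samples spread, which may be technical. No control preparation is named, so effects of plasminogen and of anything else in the added material cannot be told apart.

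Most of these receptors are built from a private chain that binds 1 cytokine and a shared chain that carries the signal. Cytokines of the common gamma chain family share Il2rg, the IL-6 and IL-12 families use gp130 or related chains, and the IL-10 family pairs a long chain with a short one such as Il10rb. These chains signal through Janus kinases and STAT factors. Signalling receptors of the IL-1 family carry a TIR domain like that of the toll-like receptors and recruit Myd88. IL-17 receptors form a family of their own. In macrophages such chains set which T cell and stromal cytokines the cell can respond to.

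The promoters shown first belong to 6 receptor genes that lie next to each other as 3 pairs, on chromosomes 2, 6 and 7, and that were all higher in PLG samples. Each is the RefSeq sequence of GRCm38.p6, from 250 bases before to 50 bases after the annotated start, 5′ to 3′ on the gene's own strand. Capitals mark matches to the NF-kB consensus, to TTCNNNGAA (the STAT-binding GAS motif), to the interferon response element (GAAA, any 2 bases, GAAA), to TGANTCA (AP-1) or to GAGGAAGT (PU.1), on either strand. Matches that overlap run together.
Il2ra: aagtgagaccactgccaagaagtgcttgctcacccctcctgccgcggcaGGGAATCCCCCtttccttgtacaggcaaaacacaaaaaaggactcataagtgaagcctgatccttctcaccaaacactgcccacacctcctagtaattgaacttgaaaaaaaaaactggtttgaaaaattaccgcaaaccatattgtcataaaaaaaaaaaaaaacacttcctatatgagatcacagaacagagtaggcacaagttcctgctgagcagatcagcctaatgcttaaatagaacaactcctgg
Il15ra: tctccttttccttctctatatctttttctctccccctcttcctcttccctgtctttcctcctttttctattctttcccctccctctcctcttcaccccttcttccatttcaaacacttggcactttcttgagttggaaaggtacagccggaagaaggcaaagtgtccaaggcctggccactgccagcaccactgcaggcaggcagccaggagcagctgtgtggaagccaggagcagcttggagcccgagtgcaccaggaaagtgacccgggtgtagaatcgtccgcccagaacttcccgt
Il12rb2: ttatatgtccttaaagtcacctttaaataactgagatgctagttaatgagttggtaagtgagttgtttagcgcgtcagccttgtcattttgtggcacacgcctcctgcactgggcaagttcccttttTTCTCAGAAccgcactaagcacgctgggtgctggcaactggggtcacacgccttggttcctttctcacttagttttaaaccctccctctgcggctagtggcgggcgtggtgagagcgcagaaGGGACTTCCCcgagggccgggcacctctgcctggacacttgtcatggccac
Il23r: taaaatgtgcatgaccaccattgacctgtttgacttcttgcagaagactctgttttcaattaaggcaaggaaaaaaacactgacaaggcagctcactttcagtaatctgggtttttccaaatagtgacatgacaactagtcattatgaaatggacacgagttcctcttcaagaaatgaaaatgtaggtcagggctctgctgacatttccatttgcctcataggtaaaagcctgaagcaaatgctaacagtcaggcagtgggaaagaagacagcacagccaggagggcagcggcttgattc
Il4ra: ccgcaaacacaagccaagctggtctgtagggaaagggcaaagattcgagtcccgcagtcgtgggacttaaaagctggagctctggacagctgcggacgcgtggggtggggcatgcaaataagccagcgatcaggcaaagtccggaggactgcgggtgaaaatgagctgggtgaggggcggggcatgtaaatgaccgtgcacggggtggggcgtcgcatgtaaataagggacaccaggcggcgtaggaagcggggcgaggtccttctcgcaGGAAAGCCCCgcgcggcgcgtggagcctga
Il21r: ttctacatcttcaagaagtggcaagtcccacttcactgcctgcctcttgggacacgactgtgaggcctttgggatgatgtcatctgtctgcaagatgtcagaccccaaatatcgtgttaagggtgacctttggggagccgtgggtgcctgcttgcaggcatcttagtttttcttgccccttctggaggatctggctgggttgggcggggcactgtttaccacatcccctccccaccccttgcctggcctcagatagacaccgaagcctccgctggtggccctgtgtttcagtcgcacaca
The windows are chr2:11642542-11642841 (plus strand) for Il2ra, chr2:11705043-11705342 (plus) for Il15ra, chr6:67376139-67376438 (minus) for Il12rb2, chr6:67491806-67492105 (minus) for Il23r, chr7:125552021-125552320 (plus) for Il4ra and chr7:125603179-125603478 (plus) for Il21r. The NF-kB consensus matched in Il2ra (GGGAATCCCC and, shifted by 1 base, GGAATCCCCC), Il12rb2 (GGGACTTCCC) and Il4ra (GGAAAGCCCC), and TTCNNNGAA matched in Il12rb2 (TTCTCAGAA). None of the 5 motifs was found in these windows of Il15ra, Il23r and Il21r, which says nothing of sites elsewhere. Of 31 members with a promoter in the RefSeq table, 3 held the NF-kB consensus, against 4.51% of all 32851 promoters. All 3 were among the 11 with a promoter that were higher in PLG samples. The share among promoters of all genes called higher is not given here. TTCNNNGAA was found in 4 of the 31 (8.30% of all promoters), TGANTCA in 4 (7.81%), the interferon response element in 1 (3.44%) and GAGGAAGT in 1 (3.20%). The TTCNNNGAA matches of Il1r2 and Il31ra lie in promoters 12014 and 13698 bases from the listed start of the gene. A match is a run of letters and was not tested for binding.

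Of the 37 genes, 22 were tested, those at 1 FPKM or more in 5 or more of the 10 samples. FPKM, made by the authors, counts fragments relative to gene length and to the depth of the library, so levels of different genes can be set side by side. In limma on log2(FPKM + 1) with Benjamini-Hochberg adjustment over all tested genes, 13 members were higher and 5 lower in PLG than in untreated samples, and 4 did not pass. Over all 9997 tested genes 60.4% were called, 29.1% as higher and 31.3% as lower. The groups did not overlap for 17 of the 22 members, against 47.2% of all tested genes. The median log2 fold change was 0.41 over the tested members and -0.02 over all tested genes. The filter bears on these counts, since 5 of the 22 reached 1 FPKM in every PLG sample and in 4 or fewer untreated samples (Il1rap, Il12rb1, Il15ra, Il20rb and Il23r), and 1, Il18rap, in every untreated sample and in 0 PLG samples. Among the 16 that reached it in all 10 samples, 8 were higher and 4 lower. A fit without the filter called 14 of the 37 as higher and 7 as lower, where 39.9% of all 16936 genes were called, 19.8% as higher and 20% as lower. In bulk samples fewer cells of a type and less RNA per cell cannot be told apart.

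**Figure D1:**
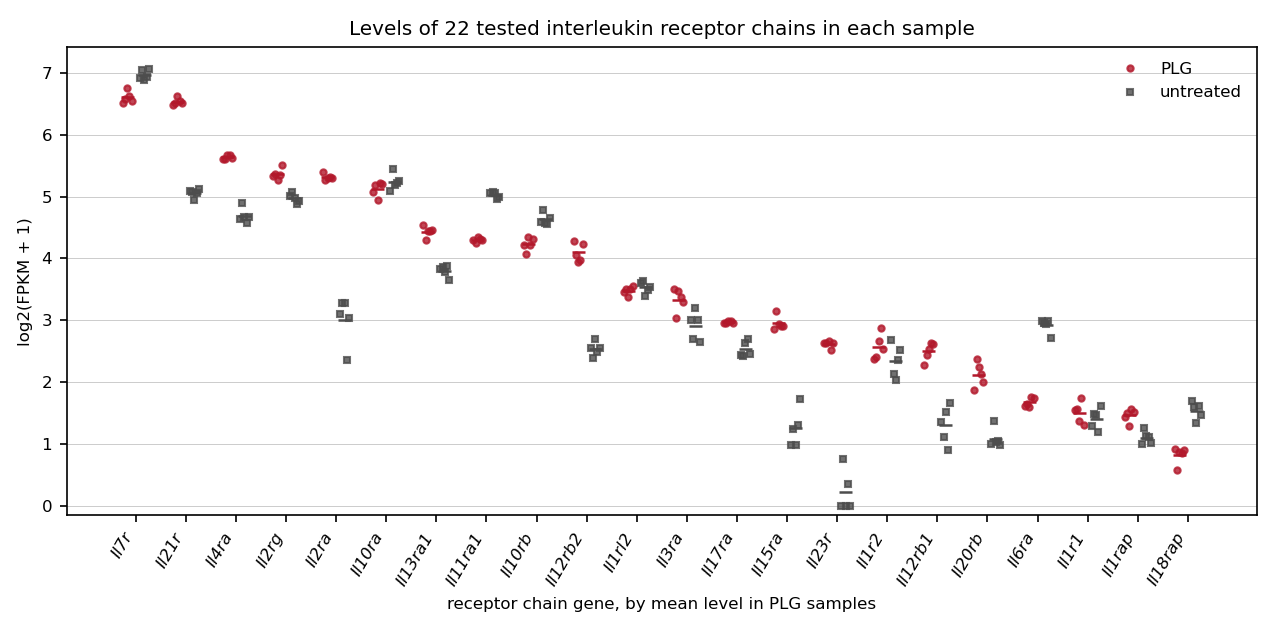
Level of the 22 tested receptor chains as log2(FPKM + 1) in each of 5 PLG samples (circles) and 5 untreated samples (squares), with horizontal lines at the group means and genes ordered by their mean FPKM in PLG samples. Il7r leads in both groups, and Il23r is listed at 0 FPKM in 3 untreated samples and at 4.75 to 5.36 FPKM in the PLG samples.

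The receptor chains summed to 484 ± 9.69 FPKM in PLG samples and 374 ± 16.1 FPKM in untreated samples (SD, n = 5 each), with ranges of 472 to 495 FPKM and 361 to 400 FPKM that did not overlap. Chains of the common gamma chain cytokines and IL-13 made up 343 ± 9.54 FPKM of this with PLG and 234 ± 11.1 FPKM in untreated samples. The sum over the 8 chains of the IL-6 and IL-12 families was 47.9 ± 1.61 FPKM with PLG and 45.7 ± 1.57 FPKM in untreated samples, and that of the 8 IL-1 family chains 20.2 ± 1.23 and 20.9 ± 1.84 FPKM in PLG and untreated samples. Within the total, Il7r took 19.9 ± 1.08% in PLG samples and 33.2 ± 1.05% in untreated samples, while Il21r took 18.9 ± 0.513% and 8.64 ± 0.417% in PLG and untreated samples. The share of Il2ra was 8.03 ± 0.351% with PLG and 1.93 ± 0.475% in untreated samples.

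**Figure D2:**
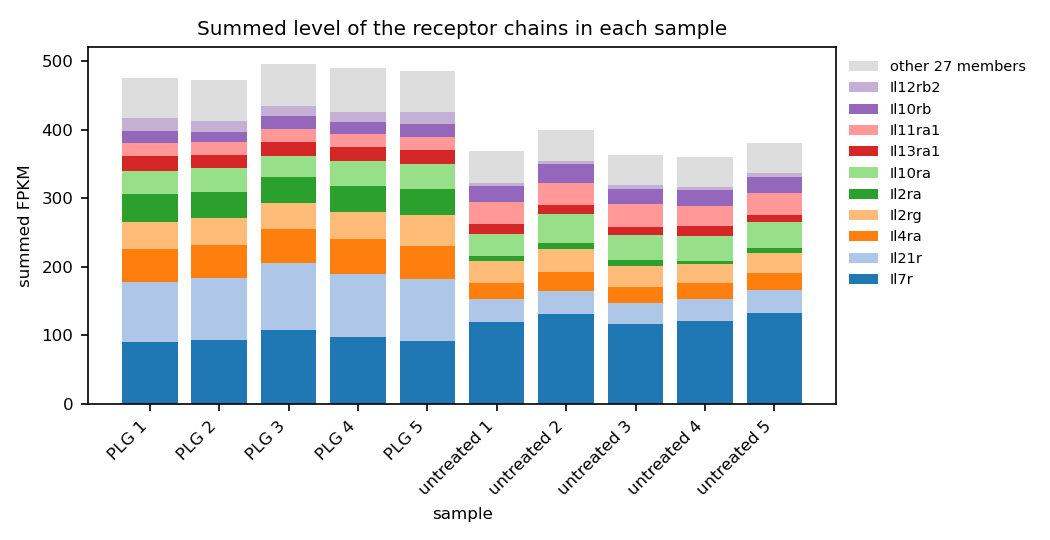
Summed FPKM of all 37 receptor chains in each PLG and untreated sample, divided by gene, with the 10 most abundant genes of the PLG samples in color and the other 27 in grey. All 5 PLG samples sum to more than any untreated sample, and the part of Il21r, Il4ra and Il2ra is larger in them while that of Il7r and Il11ra1 is smaller.

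The interleukin 2 receptor alpha chain and its neighbor, the interleukin 15 receptor alpha chain, were both higher in PLG samples, and the shared beta chain was close to absent. Il2ra (ENSMUSG00000026770.5, chromosome 2, 11642807 to 11693193) encodes CD25, which raises the affinity of the receptor for IL-2. It had 41.1, 37.4, 38.6, 38.7 and 38.2 FPKM in PLG samples 1 to 5, against 7.59, 8.70, 8.67, 4.13 and 7.20 FPKM in untreated samples 1 to 5. Every PLG sample lay above every untreated sample, and untreated 4 was the lowest. The means differed 5.35-fold (log2 fold change 2.30, SE 0.14, limma adjusted p = 6.29e-09). Il15ra (ENSMUSG00000023206.16, chromosome 2, 11705290 to 11734317), whose product binds IL-15 and presents it to other cells, had 6.26, 7.91, 6.67, 6.49 and 6.50 FPKM in PLG samples, against 0.979, 1.38, 0.993, 1.49 and 2.31 FPKM in untreated samples. The groups were again apart (log2 fold change 1.70, SE 0.13, limma adjusted p = 6.74e-08). Il2rb, the chain through which IL-2 and IL-15 signal in lymphocytes, had 94 reads over the 5 PLG libraries and 24 over the untreated libraries, all 24 of them in untreated 1. Its level was 0.026 to 0.148 FPKM in PLG samples and 0 to 0.132 FPKM in untreated samples, and it lay under the filter.

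The common gamma chain itself moved less than several of the chains that pair with it. Il2rg (chromosome X, 101264378 to 101268255) was at 40.3 ± 2.49 FPKM in PLG samples and 30.4 ± 1.67 FPKM in untreated samples (SD, n = 5 each; log2 fold change 0.39, SE 0.05, limma adjusted p = 2.68e-05). The annotated gene Gm20489 spans Il2rg on the same strand, and how the authors counted reads of such overlaps is not given in the sources used here. Il21r (ENSMUSG00000030745.9, chromosome 7, 125603429 to 125633570), the receptor of the T cell cytokine IL-21, had 87.8, 89.7, 97.9, 91.8 and 90.3 FPKM in PLG samples 1 to 5, against 33.0, 32.8, 29.6, 32.3 and 34.0 FPKM in untreated samples 1 to 5. Its groups lay far apart for their spread, 2.83-fold by the means (log2 fold change 1.47, SE 0.05, limma adjusted p = 1.14e-11). Among untreated samples the ranges of Il21r, Il11ra1 and Il2rg overlapped, behind Il7r and Il10ra in the order of levels. With PLG, Il21r stood next to Il7r at the head of the order, where their ranges overlapped.

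Il7r went the other way. It encodes the alpha chain shared by the receptors of IL-7 and, with Crlf2, of TSLP, and was the most abundant member in both groups. Il7r (ENSMUSG00000003882.5, chromosome 15, 9505788 to 9530176) had 90.3, 93.9, 107, 98.0 and 92.1 FPKM in PLG samples 1 to 5, against 119, 131, 117, 121 and 133 FPKM in untreated samples 1 to 5. The fall was small but the groups did not overlap (log2 fold change -0.37, SE 0.06, limma adjusted p = 6.66e-05). The ratio of Il7r to Il21r in a sample was 1.05 ± 0.0304 with PLG and 3.85 ± 0.156 in untreated samples. The ratio of Il2ra to Il2rg was 0.966 ± 0.0727 with PLG and 0.237 ± 0.0533 in untreated samples. These ratios were picked with the values known and are a description, with no test. Crlf2 was at 45.5 ± 2.42 FPKM in PLG samples and 45.1 ± 6.66 FPKM in untreated samples and did not pass (limma adjusted p = 0.835). The ligand gene Il7 reached 1.06 ± 0.186 FPKM with PLG and 0.225 ± 0.0996 FPKM in untreated samples, under the filter (limma adjusted p = 1.65e-05 when no filter was applied).

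Both chains of the receptor for IL-4 and IL-13 rose. Il4ra (ENSMUSG00000030748.9, chromosome 7, 125552120 to 125579474), which binds IL-4 and activates Stat6, had 48.0, 47.6, 49.6, 49.9 and 48.5 FPKM in PLG samples 1 to 5, against 23.9, 28.8, 24.5, 22.8 and 24.3 FPKM in untreated samples 1 to 5. That is 1.96-fold by the means, with no overlap (log2 fold change 0.95, SE 0.06, limma adjusted p = 6.12e-09). Its partner in the type II receptor, Il13ra1 (chromosome X, 36112110 to 36171259), was at 20.7 ± 1.26 FPKM in PLG samples and 12.97 ± 0.895 FPKM in untreated samples (SD, n = 5 each; log2 fold change 0.63, SE 0.06, limma adjusted p = 7.99e-07). The decoy Il13ra2 had 4 reads in all, every one in PLG 4, and Il9r stayed at 0.223 FPKM or below in PLG samples and 0.256 FPKM or below in untreated samples. Stat6 was at 60.5 ± 1.81 FPKM with PLG and 63.5 ± 4.77 FPKM in untreated samples and did not pass (limma adjusted p = 0.318).

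**Figure D3:**
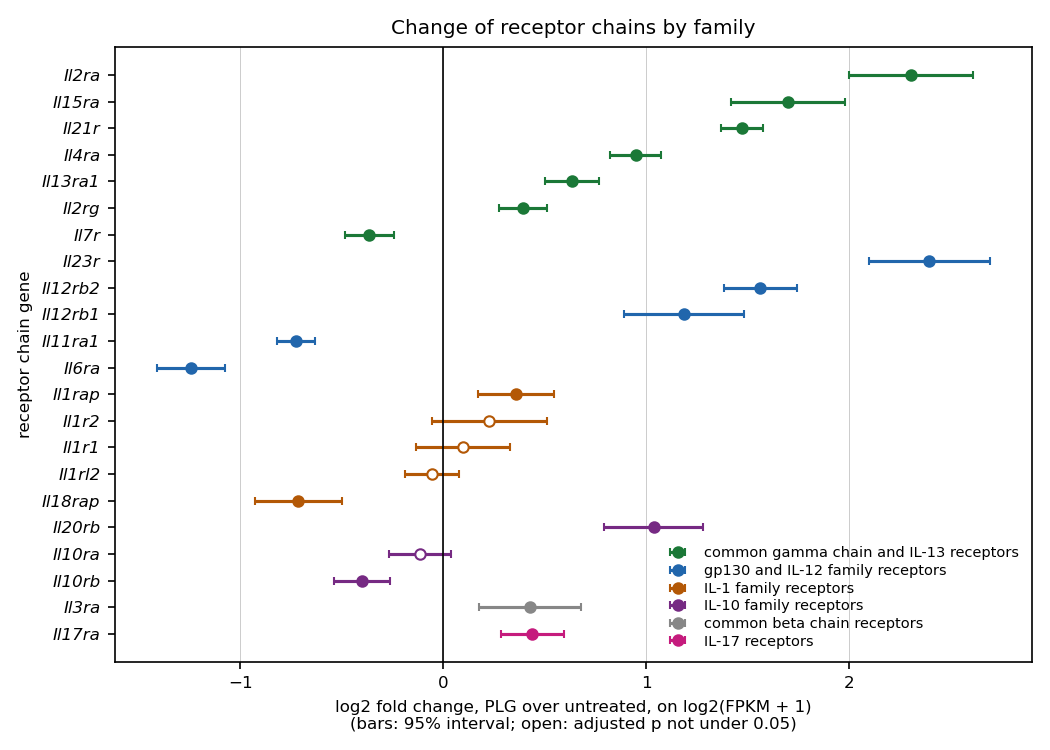
Log2 fold change of PLG over untreated samples on the log2(FPKM + 1) scale for the 22 tested receptor chains, grouped and colored by family, with bars for the 95% interval of limma and open circles for genes that did not pass. Of the 7 tested chains of the common gamma chain and IL-13 group 6 lie right of 0, led by Il2ra at 2.30, and Il6ra lies farthest left at -1.24.

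The chains of the IL-12 and IL-23 receptors rose together. IL-12 is bound by Il12rb1 with Il12rb2, and IL-23 by Il12rb1 with Il23r. Il12rb1 (ENSMUSG00000000791.9, chromosome 8, 70808449 to 70821424) had 3.85, 4.43, 4.78, 5.23 and 5.11 FPKM in PLG samples 1 to 5, against 1.57, 1.16, 1.86, 0.876 and 2.19 FPKM in untreated samples 1 to 5. The lowest PLG sample stood above the highest untreated one (log2 fold change 1.19, SE 0.14, limma adjusted p = 4.26e-06). Il12rb2 (ENSMUSG00000018341.12, chromosome 6, 67291318 to 67376188), the signalling chain of the IL-12 receptor, had 18.5, 15.6, 14.4, 14.7 and 17.8 FPKM in PLG samples, against 4.90, 4.24, 5.51, 4.60 and 4.84 FPKM in untreated samples. The groups were apart, 3.36-fold by the means (log2 fold change 1.56, SE 0.08, limma adjusted p = 1.59e-09). Serbp1, which overlaps the end of Il12rb2 on the opposite strand, was at 7.79 ± 0.475 FPKM with PLG and 7.69 ± 0.581 FPKM in untreated samples (limma adjusted p = 0.845).

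Il23r was listed at 0 in 3 untreated samples and was expressed in every PLG sample. It lies beside Il12rb2 (ENSMUSG00000049093.9, chromosome 6, 67422932 to 67491855) and had 5.21, 5.21, 5.36, 4.75 and 5.19 FPKM in PLG samples 1 to 5, against 0, 0.694, 0, 0.277 and 0 FPKM in untreated samples 1 to 5. In reads, PLG libraries held 636, 528, 504, 520 and 914, and untreated libraries 0, 56, 0, 22 and 0. All PLG samples carried the transcript at a like level, far above untreated 2 and untreated 4. This is a log2 fold change of 2.40 on the log2(FPKM + 1) scale (SE 0.14, limma adjusted p = 3.68e-09). The size depends on the pseudocount, at 4.73 with 0.1 and 0.97 with 5. On the main scale Il23r stood first among the tested members, just ahead of Il2ra, while with a pseudocount of 5 it stood below Il2ra (1.85), Il21r (1.37) and Il12rb2 (1.11). The per-sample ratio of Il12rb2 to Il12rb1 was 3.53 ± 0.782 with PLG and 3.44 ± 1.14 in untreated samples, while that of Il23r to Il12rb1 was 1.12 ± 0.169 with PLG and 0.183 ± 0.270 in untreated samples, again as a description. Stat4, the STAT factor activated by IL-12, was at 25.8 ± 1.51 FPKM in PLG samples and 0.989 ± 0.509 FPKM in untreated samples (log2 fold change 3.79, SE 0.14, limma adjusted p = 4.71e-11).

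**Figure D4:**
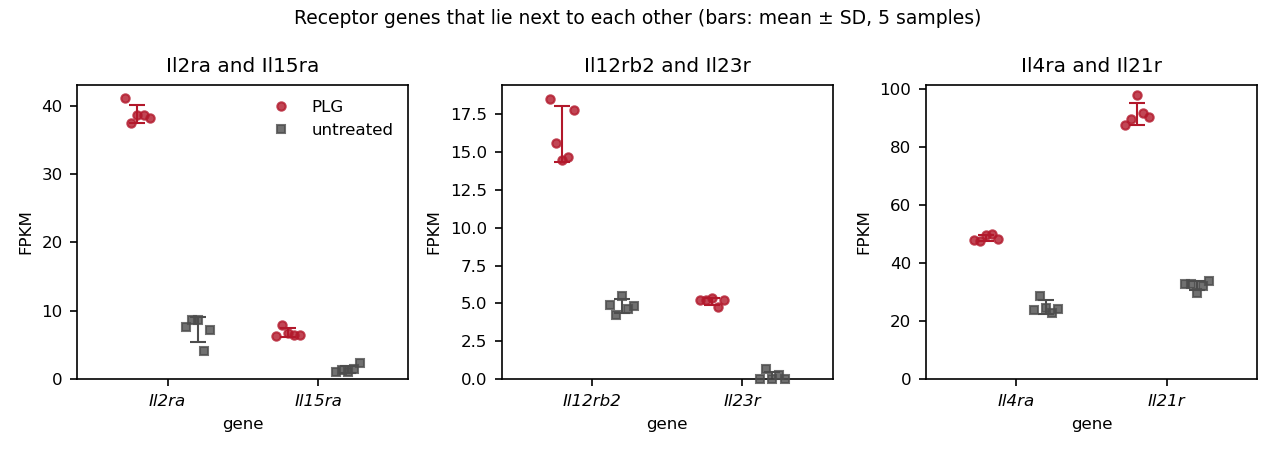
FPKM in each PLG sample (circles) and untreated sample (squares) for the 3 pairs of receptor genes that neighbor each other and were both higher, with bars at the mean ± SD of 5 samples and axes that start at 0. In each panel both genes have all PLG samples above all untreated samples, for example 37.4 to 41.1 against 4.13 to 8.70 FPKM for Il2ra.

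Position in the genome was one thing the rule did not use. Among members, 9 pairs followed each other in the table's gene order with no other listed gene between, and both genes were tested in 5 of them. In 3 of these 5 both genes were higher: Il2ra with Il15ra, 12.1 kb apart, Il12rb2 with Il23r, 46.7 kb apart, and Il4ra with Il21r, 24.0 kb apart. The filter bears on this count, since Il15ra and Il23r reached 1 FPKM in every PLG sample but in only 3 and 0 untreated samples. The pairs that hold them were thus tested through the PLG samples. Within each pair the genes lie on the same strand. Of 5736 pairs of adjacent tested genes within 100 kb in the whole table, 11.8% were both higher. That share is over all genes, of which 29.1% were higher, while 13 of the 22 tested members were. Pairs of members would thus be both higher more often wherever they lie, and what position adds was not tested. Among the 12 tested genes that flank these 3 pairs, 2 on each side, 5 were higher, 2 lower and 5 did not pass, where 29.1% of all tested genes were higher and 31.3% lower. They lie within 100 kb of the pair except Gadd45a (254 kb) and Rpia (3274 kb), beside Il12rb2 and Il23r. The nearest ones downstream of Il15ra and of Il21r, Fbh1 (12.7 ± 0.926 FPKM with PLG, 13.03 ± 0.774 FPKM in untreated samples) and Gtf3c1 (7.35 ± 0.552 and 7.32 ± 0.332 FPKM in PLG and untreated samples), did not pass. Beyond Il2ra, Pfkfb3, a regulator of glycolysis 88.7 kb away, rose (41.6 ± 1.91 FPKM with PLG, 7.62 ± 0.172 FPKM in untreated samples, limma adjusted p = 1.95e-13).

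The tested chains that pair with gp130 fell. Il6ra (ENSMUSG00000027947.11, chromosome 3, 89864059 to 89913196), the binding chain for IL-6, had 2.05, 2.15, 2.03, 2.41 and 2.35 FPKM in PLG samples 1 to 5, against 6.96, 6.77, 6.68, 6.93 and 5.55 FPKM in untreated samples 1 to 5. Every PLG sample was below every untreated sample (log2 fold change -1.24, SE 0.08, limma adjusted p = 9.08e-09). Il11ra1 (ENSMUSG00000073889.10, chromosome 4, 41699989 to 41769474), the binding chain for IL-11, had 18.7, 18.1, 19.3, 18.8 and 18.6 FPKM in PLG samples, against 32.3, 32.6, 32.3, 29.96 and 30.8 FPKM in untreated samples. The spread within groups was small and the groups apart (log2 fold change -0.73, SE 0.04, limma adjusted p = 6.12e-09). The annotated span of Il11ra1 overlaps other genes, among them Galt on the same strand, which did not pass (4.73 ± 1.14 FPKM with PLG, 5.74 ± 0.711 FPKM in untreated samples, limma adjusted p = 0.0914), and the part of shared reads was not tested. Il11ra1 also has a near copy, Il11ra2, listed with 2 reads, both in untreated 5. Il6st, which encodes gp130 itself, was at 18.1 ± 0.804 FPKM in PLG samples and 26.1 ± 1.94 FPKM in untreated samples (log2 fold change -0.50, SE 0.06, limma adjusted p = 4.37e-06). Il27ra, the chain that pairs with gp130 for IL-27, was at 0.507 to 1.19 FPKM with PLG and 0.613 to 1.235 FPKM in untreated samples, and Il31ra at 0.308 FPKM or below with PLG and 0.279 FPKM or below in untreated samples, both under the filter.

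In the IL-1 family the receptors of IL-1 and IL-36 did not pass the test and chains for IL-18 and IL-33 were lower. Il1r1, the signalling receptor of IL-1, had 1.92, 1.98, 1.59, 2.34 and 1.48 FPKM in PLG samples 1 to 5, against 1.46, 1.80, 1.76, 1.30 and 2.05 FPKM in untreated samples 1 to 5. The groups overlapped, with a log2 fold change of 0.10 and a 95% interval of -0.14 to 0.33 (limma adjusted p = 0.464). Il1r2, the decoy receptor of IL-1, was at 4.998 ± 0.883 FPKM in PLG samples and 4.15 ± 0.933 FPKM in untreated samples (95% interval of the log2 fold change -0.06 to 0.51, limma adjusted p = 0.153). Il1rl2, the receptor of IL-36, was at 10.2 ± 0.501 FPKM with PLG and 10.6 ± 0.746 FPKM in untreated samples (95% interval -0.19 to 0.08, limma adjusted p = 0.464). The accessory chain Il1rap, which completes the receptors of IL-1, IL-33 and IL-36, was slightly higher, with 1.71, 1.84, 1.45, 1.98 and 1.85 FPKM in PLG samples, against 0.999, 1.40, 1.19, 1.17 and 1.04 FPKM in untreated samples. Its groups did not overlap (log2 fold change 0.36, SE 0.09, limma adjusted p = 0.00298).

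Il18rap, the accessory chain of the IL-18 receptor, had 0.896, 0.502, 0.835, 0.807 and 0.873 FPKM in PLG samples 1 to 5, against 2.24, 2.02, 1.53, 2.08 and 1.76 FPKM in untreated samples 1 to 5. It was lower in every PLG sample (log2 fold change -0.71, SE 0.10, limma adjusted p = 2.83e-05). The binding chain Il18r1 lay under the filter, at 0.504 ± 0.0950 FPKM in PLG samples and 0.947 ± 0.413 FPKM in untreated samples. Without the filter it was called lower by a small margin (limma adjusted p = 0.0492), and the ranges overlapped, since PLG 1 at 0.613 FPKM was above untreated 4 at 0.578 FPKM. Il1rl1, the receptor of IL-33 known as ST2, had 71, 0, 51, 25 and 47 reads in PLG libraries 1 to 5, against 160, 159, 80, 113 and 99 reads in untreated libraries 1 to 5. In FPKM these are at most 0.210 with PLG and at least 0.322 in untreated samples, and the fit without the filter called it lower (limma adjusted p = 0.00170). These 6 receptor genes lie together within 478 kb of chromosome 1, from Il1r2 at 40074079 to the end of Il18rap at 40551705. Il1rl1 ends 137 bases before Il18r1 starts. The neuronal chain Il1rapl1 had 2 reads over the PLG libraries and 1 over the untreated libraries.

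The IL-10 receptor chains were abundant in both groups. Il10ra, which binds IL-10, had 32.8, 35.6, 29.7, 36.1 and 35.7 FPKM in PLG samples 1 to 5, against 33.2, 42.5, 35.4, 36.1 and 37.1 FPKM in untreated samples 1 to 5. These overlapped and did not pass (log2 fold change -0.11, 95% interval -0.27 to 0.04, limma adjusted p = 0.188), although with quantile normalization Il10ra was called lower (log2 fold change -0.23, limma adjusted p = 0.00812). Il10rb (ENSMUSG00000022969.13, chromosome 16, 91406164 to 91425834), the short chain shared by IL-10 and its relatives, was at 17.8 ± 1.36 FPKM in PLG samples and 23.8 ± 1.64 FPKM in untreated samples, with no overlap (log2 fold change -0.40, SE 0.06, limma adjusted p = 1.02e-04). The annotated gene Gm21970 overlaps it on the same strand and was not analysed here. Il20rb, a chain of the receptors of IL-19, IL-20 and IL-24, had 2.65, 4.21, 3.74, 3.38 and 3.001 FPKM in PLG samples, against 1.002, 1.58, 1.05, 1.08 and 0.977 FPKM in untreated samples. It rose 2.98-fold by the means, with no overlap (log2 fold change 1.04, SE 0.11, limma adjusted p = 2.50e-06). Its partner Il22ra1 had 0 reads over the PLG libraries and 2 over the untreated libraries. The other partner, Il20ra, would match the symbol rule but is not among the genes that the rule found.

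Among the remaining families 2 chains were tested and both rose. Il17ra, the chain common to IL-17 receptors, had 6.75, 6.76, 6.94, 6.96 and 6.80 FPKM in PLG samples 1 to 5, against 4.42, 4.36, 5.19, 5.51 and 4.51 FPKM in untreated samples 1 to 5. The groups were apart (log2 fold change 0.44, SE 0.07, limma adjusted p = 1.19e-04). Il3ra, the binding chain for IL-3, had 10.3, 7.21, 10.1, 9.37 and 8.78 FPKM in PLG samples, against 7.01, 5.47, 8.16, 6.99 and 5.29 FPKM in untreated samples. Its groups overlapped, since PLG 2 lay below untreated 3 (log2 fold change 0.43, SE 0.12, limma adjusted p = 0.00597). The shared beta chains that pair with it did not pass, with Csf2rb at 490 ± 24.2 FPKM in PLG samples and 517 ± 9.26 FPKM in untreated samples and Csf2rb2 at 345 ± 26.1 and 350.0 ± 9.19 FPKM in PLG and untreated samples, although reads of these close paralogs may be divided between them. Il5ra had 0 reads over the PLG libraries and 23 over the untreated libraries, of which 2 held none, and did not pass without the filter (limma adjusted p = 0.124).

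Il17rd, also called Sef, was detected in PLG libraries alone. It held 75, 87, 100, 27 and 88 reads in PLG libraries 1 to 5, against 0 reads in each of the untreated libraries. That is at least 95.4-fold higher for the depth of the groups, with the untreated group as a whole set at a floor of 3 reads (counting error only). Its level was nonetheless low, at 0.056 to 0.241 FPKM in PLG samples (limma adjusted p = 0.00167 when no filter was applied). The remaining IL-17 receptor genes, Il17rb, Il17rc and Il17re, did not pass without the filter. Il17rb was at 0.525 ± 0.0972 FPKM with PLG and 0.417 ± 0.303 FPKM in untreated samples, Il17rc at 0.264 ± 0.130 FPKM with PLG and 0.325 ± 0.145 FPKM in untreated samples, and Il17re at 0.124 FPKM or below in every sample.

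Genes that work with these receptors were taken from lists written with earlier results of these data known, and are given by count, where 60.4% of all tested genes were called (29.1% higher, 31.3% lower). Of 13 tested interleukin ligands 9 were higher and 3 lower (median log2 fold change 1.54, against -0.02 over all tested genes). The filter bears on this count too, since Il1b, Il6, Il12a, Il12b and Il27 reached 1 FPKM in every PLG sample but not in every untreated sample. Il6, Il12a and Il27 had at most 0.457, 0.074 and 1.167 FPKM in any untreated sample. Il1b and Il12b had 0.804 and 0.47 FPKM in their lowest untreated sample. Of the ligands called lower, Il16 and Il17c reached 1 FPKM in every untreated sample but not in every PLG sample. For the receptors described, Il15 was at 6.97 ± 0.444 FPKM with PLG and 3.59 ± 0.592 FPKM in untreated samples (limma adjusted p = 4.51e-06), and Ebi3 and Il27, the subunits of IL-27, at 22.4 ± 2.14 and 4.57 ± 0.808 FPKM with PLG and at 9.45 ± 1.34 and 0.476 ± 0.558 FPKM in untreated samples. Il1f9, which encodes IL-36 gamma, was at 89.2 ± 4.61 FPKM in PLG samples and 30.03 ± 3.38 FPKM in untreated samples. Il23a, the private subunit of IL-23, had 279 reads over the PLG libraries and 0 over the untreated libraries. Of 11 Janus kinases and STATs 8 were higher and 0 lower (median 1.17), among them Jak2 at 231 ± 11.5 FPKM with PLG and 46.9 ± 6.32 FPKM in untreated samples and Jak3, which docks on the common gamma chain, at 5.57 ± 0.425 and 1.91 ± 0.189 FPKM in PLG and untreated samples. Of 8 genes of the SOCS family, feedback inhibitors of these kinases, 4 were higher and 2 lower (median 0.25), with Socs3 at 52.9 ± 2.14 FPKM with PLG and 12.6 ± 3.75 FPKM in untreated samples and Socs6 at 2.41 ± 0.261 FPKM with PLG and 11.8 ± 1.06 FPKM in untreated samples. Of 10 genes of IL-1 receptor signalling 4 were higher and 3 lower (median -0.02). All 3 tested antagonists were higher (median 1.29), including the IL-18 binding protein gene Il18bp at 13.9 ± 1.66 FPKM with PLG and 5.15 ± 1.10 FPKM in untreated samples. The filter bears on 2 of these lists as well. Stat4 among the STATs and Sigirr among the antagonists reached 1 FPKM in every PLG sample but not in every untreated sample. Their untreated ranges were 0.502 to 1.55 and 0.329 to 1.183 FPKM. Of 5 tested partner chains outside the members 2 were lower, Il6st and Csf2ra, and 0 higher (median -0.08).

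PLG libraries held 33547089 to 64214554 reads on the genes of the table and untreated libraries 28426105 to 37680105. Reads summed over a group are thus from deeper libraries with PLG, where FPKM allows for depth. The correlation of 2 samples was 0.976 to 0.995 in the same group and 0.847 to 0.868 across groups, and no 2 replicates agreed within sampling noise. Several chains that rose are best known from lymphocytes, whose markers were low: the 7 T cell markers summed to 0.848 to 1.90 FPKM in PLG samples and 0.444 to 0.765 FPKM in untreated samples, with Cd3e at a mean of 0.0052 FPKM with PLG and 0.0030 FPKM in untreated samples, and the 6 markers of NK and innate lymphoid cells to 0.574 to 1.14 FPKM with PLG and 0.198 to 0.851 FPKM in untreated samples. Il7r was also on the NK and innate lymphoid list and, as a member, was left out of its sum. It was abundant, at 96.3 ± 6.73 FPKM with PLG and 124 ± 7.10 FPKM in untreated samples. The T cell and NK markers in the sums all lay under the filter. Without it Cd8a of the T cell list (0.326 ± 0.170 FPKM with PLG, 0.0184 ± 0.0411 FPKM in untreated samples, limma adjusted p = 0.00247) and Klrd1 of the NK list (0.269 ± 0.129 FPKM with PLG, listed at 0 in every untreated sample, limma adjusted p = 0.00153) were called higher. The 6 B cell markers summed to at most 0.457 FPKM with PLG and 0.893 FPKM in untreated samples, and the 8 markers of stroma and endothelium to 5.54 to 6.95 FPKM with PLG and 5.84 to 7.20 FPKM in untreated samples. Macrophage markers were high in all samples, 2 of 9 rising and 6 falling, with sums of 3146 to 3251 FPKM in PLG samples and 5918 to 7443 FPKM in untreated samples. Of 8 tested dendritic cell markers 5 were higher and 3 lower. The sums over 9 genes were 693 to 768 FPKM with PLG and 312 to 357 FPKM in untreated samples. The changes in these macrophage and dendritic cell sums follow Lyz2 and Ccr7 rather than each list as a whole. Lyz2 was at 2000 ± 77.9 FPKM with PLG and 5792 ± 561 FPKM in untreated samples. Ccr7 was at 542 ± 27.1 and 38.1 ± 10.8 FPKM in PLG and untreated samples. Flt3 passed the filter through the PLG samples, with at most 0.175 FPKM in any untreated sample. Cd209a passed it through the untreated samples, with at most 0.071 FPKM in any PLG sample. Neither list is specific in GM-CSF cultures. The 7 neutrophil markers summed to 16.8 to 26.3 FPKM with PLG and 10.5 to 20.5 FPKM in untreated samples, and the 6 mast cell and basophil markers to 21.6 to 26.2 FPKM with PLG and 3.05 to 5.21 FPKM in untreated samples. Of these, Hdc was at 17.1 ± 1.51 FPKM with PLG and 0.137 ± 0.118 FPKM in untreated samples, Gata2, also called higher, at 3.31 ± 0.372 and 1.998 ± 0.814 FPKM in PLG and untreated samples, and Cpa3, which did not pass, at 2.56 ± 0.742 and 1.94 ± 1.34 FPKM in PLG and untreated samples, while Mcpt8, Ms4a2 and Tpsb2 averaged under 0.1 FPKM in both groups. The part of these shifts in the receptor values was not tested.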

How the data were processed

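RNA was measured in 10 samples, grouped and numbered by their titles. The authors deposited FPKM for 16936 protein-coding genes with 3 decimals, with gene lengths and coordinates. The submitters' processing notes list STAR 2.7.3a, featureCounts 2.0.0, cutadapt 2.10, DESeq2 1.24.0, FastQC 0.11.9 and build GRCm38.p6, without role or order. The sources used here give no annotation release, strand setting or handling of shared reads. Of the 37 members, 36 have the same coordinates in GENCODE release M21, and 7 overlap another protein-coding gene. Not every overlapping gene is reported here.

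FPKM times gene length fell on whole multiples of 1 step in each sample, which gave whole reads per gene: 100% of the low values tested lay within 0.1 of a whole read. Depth limits members under about 1 FPKM, and bounds from a floor of 3 reads cover counting error only.

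Genes at 1 FPKM or more in at least 5 samples were compared as log2(FPKM + 1) with limma (version 3.58.1, in R 4.3.3), fitting treatment alone with trended moderation, two-sided tests and Benjamini-Hochberg adjustment at 0.05 over all tested genes. The model was tested on simulated data. Ratios of chains are given without a test. Every member is named. Members passing the filter are given per sample or as mean ± SD, and list genes by smallest p or as ligands and partners of the receptors described. Flanking and overlapping genes were picked by position. Members and lists were chosen with earlier results of these data known. Promoters are those of RefSeq (31 of 37 matched), the one nearest the gene's listed start where several were given. Those of Il1r2, Il31ra and Il11ra1 lay 12014, 13698 and 60454 bases from that start. Alternatives were pseudocounts of 0.1 and 5, no filter or 5 FPKM, median-of-ratios scaling, quantile normalization, eBayes without trend or with robust fitting, a replicate block, voom on recovered reads and leaving out each sample.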

Additional observations from a re-analysis of the deposited data

Results flagged for a closer look

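Of 44 groups of 5 samples, 2 for each of the 22 tested receptor chains, 6 held a sample far from the other 4 of its group, where chance flags about 1 in 20 groups. Il15ra in PLG 2 was high at 7.91 FPKM, against 6.26 to 6.67 FPKM in the other PLG samples. In the same sample Il18rap was low at 0.502 FPKM. Il23r was lowest in PLG 4 at 4.75 FPKM. Among untreated samples Il2ra was low in untreated 4 at 4.13 FPKM, Il20rb high in untreated 2 at 1.58 FPKM and Il6ra low in untreated 5 at 5.55 FPKM. None of these samples reached the range of the other group for the gene in question.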

How the results depend on the processing

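Over 20 alternatives, 21 of the 22 tested receptor chains kept their direction and their side of the threshold wherever they were tested. Il10ra is the exception, called lower with quantile normalization (log2 fold change -0.23, limma adjusted p = 0.00812, and 0.00812 to 0.430 over its 20 alternatives). The number of chains called higher was 13 in the main fit, 14 without the filter, 9 with a filter of 5 FPKM, which left 15 chains tested, and 12 to 13 when 1 sample was left out. The number called lower was 5, 7 without the filter, 6 with quantile normalization, and 4 to 5 when 1 sample was left out. Without any 1 PLG sample Il23r, and without any 1 untreated sample Il18rap, fell below the filter of 5 samples and was not tested. Over all genes 6040 were called, 4318 with the filter of 5 FPKM, which tested 6356 genes, 6755 without a filter and 5462 to 5895 when 1 sample was left out. Samples with the same number did not deviate together (correlations -0.121 to 0.099). This cannot settle whether the numbers pair the samples, since a weak shared effect could go unseen. With a replicate block 5785 genes, 13 chains higher and 5 lower were called. Reads limit the chains under 1 FPKM, of which 15 were not tested.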
